A study of Arabidopsis thaliana with 32 samples.

Results

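The genes described here are 10 alpha-expansin genes of Arabidopsis thaliana, chosen by name as expansins of shoot growth. They are EXPA1 (AT1G69530), EXPA2 (AT5G05290), EXPA3 (AT2G37640), EXPA4 (AT2G39700), EXPA5 (AT3G29030), EXPA6 (AT2G28950), EXPA8 (AT2G40610), EXPA10 (AT1G26770), EXPA11 (AT1G20190) and EXPA15 (AT2G03090). All 10 were found by these locus identifiers among the 19685 genes of the deposited expression table. RNA was sequenced from whole seedlings, about 40 to a sample, in 32 libraries of 12 groups, to follow genes regulated by HY5, a bZIP transcription factor that promotes development in the light. Every group is of the Columbia ecotype, received 1 h of white light for germination and then spent 3 days in the dark at 21 °C. The dark groups were harvested at that point under green safe light, and the others after a further 1.5 h or 4 h of simulated white light at 100 µmol m−2 s−1.

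Col is the wild type Col-0, and hy5 is a mutant whose allele the labels do not name. The other 3 genotypes carry a transgene in the hy5/hy5 background, so that hy5 is the control they share. OX carries 35S:FLASH-HY5, VP16 carries 35S:FLASH-HY5-VP16 with a transcriptional activation domain, and SRDX carries 35S:FLASH-HY5-SRDX with a repression domain. The viral 35S promoter is active in most tissues, and the labels do not say how many independent lines were used. Dark and 1.5 h groups consist of 3 libraries, except those of SRDX with 2. At 4 h only hy5 and SRDX were sampled, each with 2 libraries. Nothing in the labels says that replicate libraries came from separate cultures, so each p-value here describes the variation among the libraries, which may be technical.

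Expansins are small secreted proteins that loosen plant cell walls at acid pH without cutting the wall polymers, and they let turgor stretch the wall. Proton pumps of the plasma membrane acidify the wall, and clade D protein phosphatases hold these pumps in check. In a seedling grown in the dark the hypocotyl elongates while the cotyledons stay small. Light slows the hypocotyl and starts the expansion of the cotyledons, so that wall loosening is turned down in one organ and up in another.

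The DNA before 4 of the genes is shown. EXPA1 and EXPA10 had the steepest rises in light, and EXPA2 was the expansin that differed most between Col and hy5 in the dark. EXPA11 fell in light in most genotypes, in 5 of 7 comparisons, although EXPA3, not shown, fell in 6. The 4 genes shown are also those of the 10 whose windows hold CACATG. Each line gives the 250 bases that end next to the annotated gene start, 5′ to 3′ on the strand of the gene, from the RefSeq TAIR10.1 assembly. Capitals mark matches to ACGT or CACATG or TGTCTC on either strand.
EXPA1: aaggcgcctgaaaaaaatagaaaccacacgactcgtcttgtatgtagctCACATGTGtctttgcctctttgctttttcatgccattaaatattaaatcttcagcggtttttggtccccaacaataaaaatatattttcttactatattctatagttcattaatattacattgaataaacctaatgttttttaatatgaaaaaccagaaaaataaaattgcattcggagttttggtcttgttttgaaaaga
EXPA10: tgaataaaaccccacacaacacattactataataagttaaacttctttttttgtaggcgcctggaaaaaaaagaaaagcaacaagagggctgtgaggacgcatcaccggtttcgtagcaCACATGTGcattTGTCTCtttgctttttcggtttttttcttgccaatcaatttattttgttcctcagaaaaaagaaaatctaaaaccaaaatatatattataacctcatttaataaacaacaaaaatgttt
EXPA11: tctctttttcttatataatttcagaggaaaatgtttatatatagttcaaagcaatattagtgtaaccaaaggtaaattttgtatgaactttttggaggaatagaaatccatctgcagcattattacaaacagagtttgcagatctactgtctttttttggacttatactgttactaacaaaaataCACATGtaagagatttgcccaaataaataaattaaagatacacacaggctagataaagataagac
EXPA2: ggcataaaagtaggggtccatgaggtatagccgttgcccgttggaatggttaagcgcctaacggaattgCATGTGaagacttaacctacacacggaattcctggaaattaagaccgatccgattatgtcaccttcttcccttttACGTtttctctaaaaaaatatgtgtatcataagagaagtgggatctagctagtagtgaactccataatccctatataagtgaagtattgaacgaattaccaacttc
These windows lie at chr1:26141476-26141725 on the plus strand for EXPA1, chr1:9259182-9259431 on the plus strand for EXPA10, chr1:6999840-7000089 on the minus strand for EXPA11 and chr5:1568444-1568693 on the plus strand for EXPA2. No annotated gene reaches into them.

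EXPA1 and EXPA10 each hold CACATG on both strands in overlapping matches, which together spell CACATGTG. That run of letters, searched after it had been seen in these windows, is in 75 of the 19129 windows of the same length, or 0.392%. The same pair also shares a run of 14 bases, ctctttgctttttc, that starts 186 bases before EXPA1 and 116 bases before EXPA10. It is the longest run shared by any pair of the 10 windows, and the next, of EXPA3 and EXPA10, has 12 bases. Over the 10 genes, CACATG, an E-box bound by PIF factors, is in 4 windows (EXPA1, EXPA2, EXPA10 and EXPA11) and in 11.3% of all windows. ACGT, the core that bZIP factors bind, is in 3 (EXPA2, EXPA3 and EXPA6) against 44.7%, and TGTCTC, the auxin response element, in 3 (EXPA5, EXPA6 and EXPA10) against 10.6%. The G-box CACGTG, which contains ACGT, is in 0 of the 10 windows and in 7.61% of all windows, and the BZR1 element CGTGCG in 0 and in 1.67%. A match is a description of letters, and the absence of one says nothing of binding elsewhere.

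**Figure D1:**
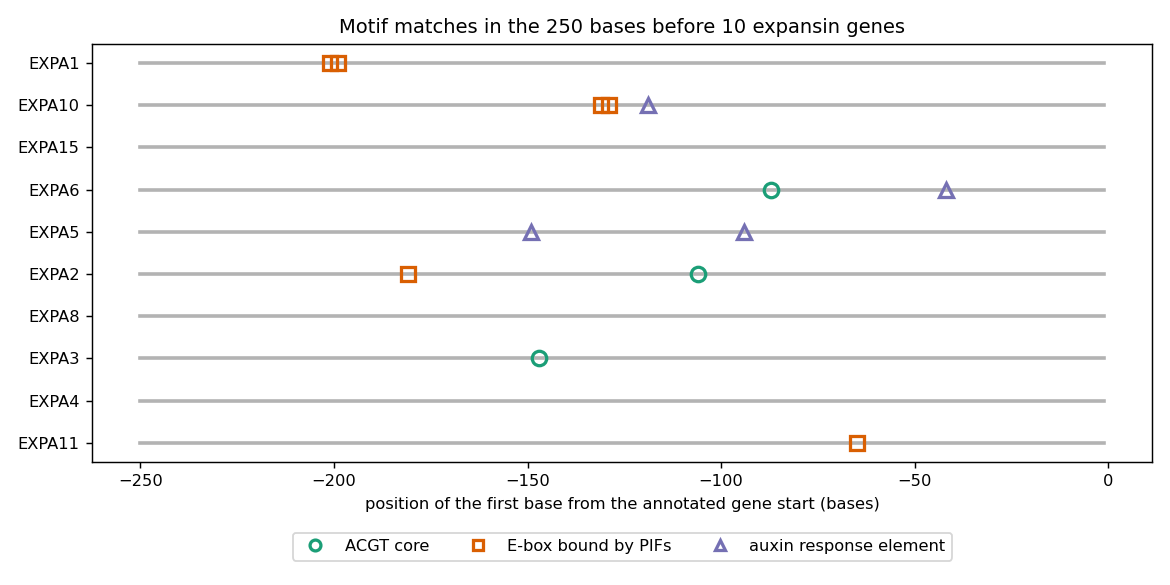
Motif matches in the 250 bases before each of the 10 genes. The x axis is the position of a match's first base from the annotated gene start in bases, and each marker shape stands for 1 motif, ACGT or CACATG or TGTCTC. 7 of the windows hold a match, and the overlapping markers of EXPA1 and EXPA10 are the run CACATGTG.

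The libraries held 7499581 to 21420680 reads in genes, so that 1 read corresponded to 0.0457 to 0.131 CPM, the library-scaled read count of the deposited table. These values were compared as log2(CPM + 1) with limma, and a call is an adjusted p below 0.05 over all genes of a comparison. On this scale the change of low genes, EXPA2 above all, is understated. HY5 itself, the check of the labels, averaged 24.6 CPM in dark Col and 21.7 in dark hy5, and 216 in Col against 25.1 in hy5 at 1.5 h. The dark values did not separate Col from hy5 (log2 difference 0.16, adjusted p = 0.57), so in the dark the transcript is no check of these labels. In hy5 at 4 h HY5 averaged 82.2 CPM and was higher than in the dark by 1.88 (adjusted p = 2.3e-12). It averaged 14280 CPM in dark OX, 2338 in dark VP16 and 1026 in dark SRDX, so the transgenic lines differed in the amount of transcript as well as in the fused domain. Of the marker lists for tissues of a whole seedling, 4 of 4 root hair genes, 3 of 3 of root endodermis and ground tissue, 4 of 4 of shoot epidermis and stomata and 1 of 2 of the shoot meristem were measured. In such bulk samples, fewer cells of a type and less RNA per cell cannot be told apart.

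Compared per kilobase of coding sequence, EXPA3 had the highest level of the 10 in each dark group, 431.6 ± 35.9 CPM per kb in Col (SD, n = 3) and 426.2 ± 32.9 in hy5 (n = 3). EXPA11 and EXPA8 followed in Col at 224 and 198 CPM per kb, with overlapping libraries, and EXPA4 at 122 CPM per kb. EXPA15 and EXPA2 were lowest in dark Col, at 14.2 and 17.2 CPM per kb, and their libraries overlapped. Light moved EXPA1 up this order: it stood sixth in dark Col and hy5, was first in OX and VP16 at 1.5 h at 360.0 and 272 CPM per kb, and reached 1005 ± 159.6 CPM per kb (n = 2) in hy5 at 4 h. EXPA2 was last in each group but dark Col. Read numbers reflect this range: a library held 281 to 12969 reads of EXPA1 and 1 to 244 of EXPA2.

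The sum of the 10 genes was 918 ± 100.7 CPM in dark Col and 979 ± 48.5 in dark hy5 (n = 3 each), and 890.0 ± 47.7 and 888 ± 58.6 at 1.5 h. It was 1896 ± 93.6 CPM in hy5 and 1524 ± 19.2 in SRDX at 4 h (n = 2 each). The makeup of the sum differed between dark and light. EXPA3 supplied 37.1% of the summed CPM in dark Col and EXPA1 4.58%, whereas at 1.5 h these shares were 26.8% and 17.7%. In hy5 at 4 h EXPA1 supplied 43.9% and EXPA3 8.91%.

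**Figure D2:**
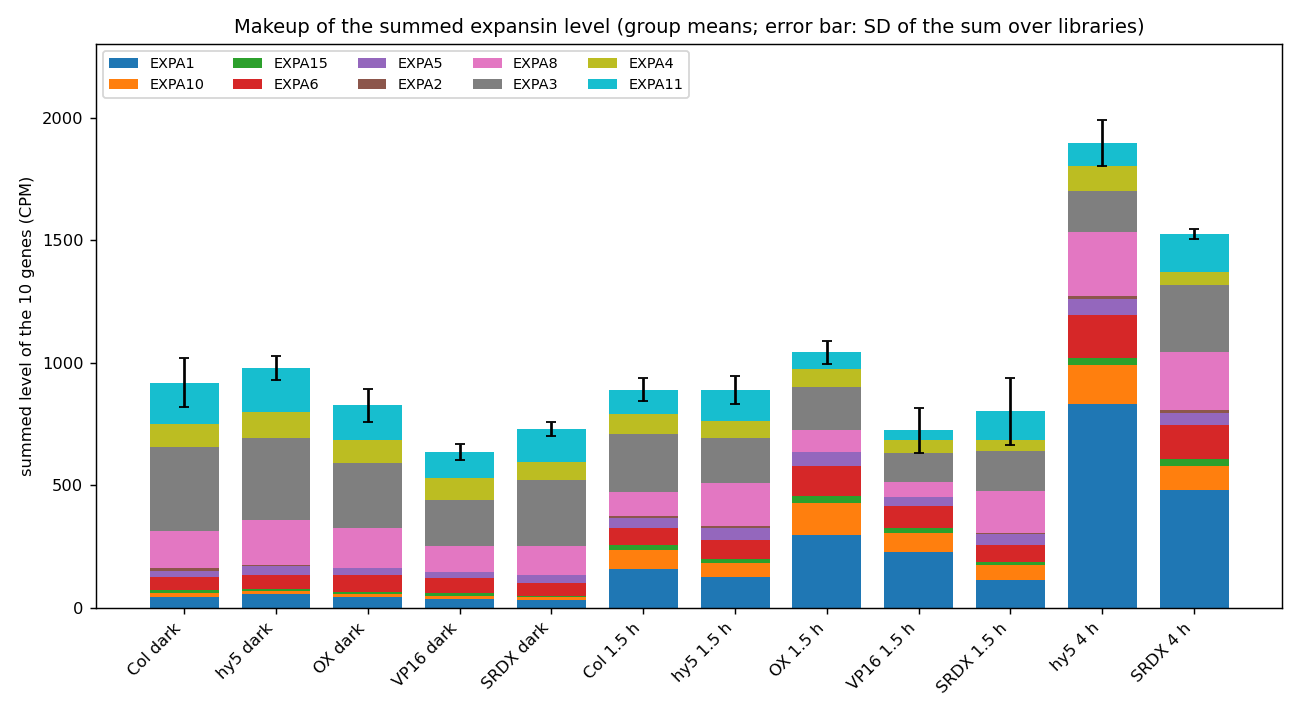
Summed level of the 10 expansin genes in CPM on the y axis, starting at 0, for the 12 groups on the x axis, with each gene's group mean stacked by colour and the SD of the sum over 2 or 3 libraries as the error bar. EXPA1 takes a growing part of the bar with time in light.

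Light against dark was compared within each genotype. EXPA1, EXPA10, EXPA15 and EXPA5 rose in each of the 7 comparisons and EXPA6 in 6 of them, whereas EXPA3 fell in 6, EXPA4 and EXPA11 in 5 and EXPA8 in 3. At 1.5 h, 7 of the 10 genes were called in Col, 4 higher and 3 lower, against 35.8% of all genes, 18% higher and 17.9% lower. In hy5 6 rose and 3 fell (32% of all genes, 16.4% and 15.7%), and in OX 5 and 4 (46.2%, 23.6% and 22.6%). In VP16 5 rose and 4 fell (44.6%, 22.4% and 22.1%), and in SRDX 5 and 2 (26.6%, 13.9% and 12.7%). At 4 h 6 rose and 2 fell in hy5 (50.8%, 24.5% and 26.3%), and 7 and 1 in SRDX (46.6%, 23.1% and 23.6%). The median log2 difference of the 10 was 0.06 in Col, 0.40 in hy5, 0.64 in OX, 0.44 in VP16 and 0.51 in SRDX at 1.5 h, and 1.19 in hy5 and 1.24 in SRDX at 4 h, while that of all genes lay between -0.03 and 0.01.

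EXPA1, which is known for loosening guard cell walls, was at 41.3, 43.3 and 41.6 CPM in the dark Col libraries and at 163, 139.7 and 170.5 at 1.5 h. In hy5 it was at 54.1, 51.6 and 57.4 CPM in the dark, 139, 121.5 and 113 at 1.5 h, and 925.5 and 739 at 4 h. No light library of either genotype came near the dark range, and the 4 h libraries stood far above those of 1.5 h. The log2 difference at 1.5 h was 1.88 ± 0.13 (SE) in Col (adjusted p = 4.9e-13) and 1.18 ± 0.13 in hy5 (adjusted p = 1.5e-08), and at 4 h in hy5 it was 3.90 ± 0.14 (adjusted p = 3.1e-19). In OX, VP16 and SRDX at 1.5 h EXPA1 rose by 2.73, 2.60 and 1.71, and in SRDX at 4 h by 3.82.

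EXPA10, known from the growth of leaves and petioles, had 19.2, 16.8 and 19.3 CPM in dark Col and 82.9, 72.3 and 77.1 at 1.5 h. In hy5 it had 13.8, 9.46 and 15.7 CPM in the dark and 63.3, 69.2 and 45.03 at 1.5 h. The dark and light libraries were well apart in both genotypes. The rise was 2.01 ± 0.19 in Col and 2.11 ± 0.19 in hy5 on the log2 scale (adjusted p = 3.1e-10 and 1.5e-10), 3.44 in OX, 2.54 in VP16 and 2.44 in SRDX. EXPA15, a close relative of EXPA10, had lower levels, 12.7, 7.70 and 12.2 CPM in dark Col and 22.8, 21.5 and 20.9 at 1.5 h, without overlap. It rose by 0.97 ± 0.19 in Col (adjusted p = 0.00011), by 0.83 to 1.78 in the other genotypes at 1.5 h, and by 1.63 and 2.09 in hy5 and SRDX at 4 h; without SRDX dark replicate 1 the rise in SRDX at 1.5 h was 0.61 (adjusted p = 0.082).

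EXPA6 rose less. It was at 56.0, 60.6 and 56.4 CPM in dark hy5, at 85.4, 79.8 and 61.3 at 1.5 h and at 204 and 144 at 4 h. The gain at 4 h was 1.56 ± 0.15 (adjusted p = 3.9e-10), and that at 1.5 h 0.37 ± 0.13 (adjusted p = 0.031). The latter call was lost without hy5 dark replicate 1 (0.35) or 3 (0.35), or without hy5 1.5 h replicate 1 (0.28) or 2 (0.32), with adjusted p from 0.082 to 0.18. The SRDX call at 1.5 h (0.43) was lost without any 1 of its 4 libraries, at 0.34 to 0.53. In Col the difference was 0.29 (adjusted p = 0.088), and without Col 1.5 h replicate 3 it was called at 0.38.

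EXPA5, known to act in stem growth downstream of brassinosteroids, had 23.5, 23.8 and 25.0 CPM in dark Col and 53.6, 42.1 and 36.8 at 1.5 h. All light libraries stood above all dark ones. It rose by 0.83 ± 0.13 in Col (adjusted p = 6.2e-06), by 0.37 to 0.87 in the other genotypes at 1.5 h, and by 0.82 and 0.63 in hy5 and SRDX at 4 h. The smallest of these, 0.37 in VP16, was not called without VP16 dark replicate 1 (0.30) or VP16 1.5 h replicate 1 (0.22), and the 0.49 of SRDX not without its dark replicate 1 (0.41) or 1.5 h replicate 1 (0.32).

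EXPA3, the most abundant in the dark, was at 340.5, 312 and 369 CPM in dark Col and at 242, 220.2 and 253 at 1.5 h. In SRDX it was at 259 and 277 CPM in the dark, 172.5 and 153 at 1.5 h, and 258 and 288.5 at 4 h. The dark and 1.5 h ranges did not overlap in either genotype, and the SRDX libraries of 4 h lay on both sides of the dark ones. EXPA3 fell by 0.51 ± 0.09 in Col (adjusted p = 4.9e-05), and in hy5 by 0.87 at 1.5 h and 0.99 at 4 h. In SRDX it fell by 0.72 at 1.5 h, while the difference at 4 h was 0.03 ± 0.11 (adjusted p = 0.87).

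EXPA11 was at 162, 165 and 183 CPM in dark Col and 96.8, 90.6 and 108.5 at 1.5 h. In VP16 it was at 104, 109.0 and 109.0 CPM in the dark and 44.3, 36.1 and 39.5 at 1.5 h. The groups were apart in both genotypes. EXPA11 fell by 0.78 ± 0.12 in Col (adjusted p = 4.2e-06), by 0.53 in hy5, 1.02 in OX and 1.41 in VP16 at 1.5 h and by 0.95 in hy5 at 4 h. In SRDX the differences were -0.23 at 1.5 h (adjusted p = 0.26) and 0.18 at 4 h (adjusted p = 0.32).

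EXPA4 was at 103, 110.2 and 109 CPM in dark hy5, at 68.1, 72.7 and 67.5 at 1.5 h and at 87.8 and 115 at 4 h. The 1.5 h libraries were below all others, while those of 4 h straddled the dark range. EXPA4 fell at 1.5 h by 0.62 ± 0.13 in hy5 (adjusted p = 0.00028), 0.40 in OX, 0.77 in VP16 and 0.61 in SRDX, and by 0.47 in SRDX at 4 h; in Col the difference was -0.17 (adjusted p = 0.31). The OX call was lost without OX dark replicate 1 (-0.32) or OX 1.5 h replicate 2 (-0.29). The SRDX call at 1.5 h was lost without SRDX dark replicate 1 (-0.48) or SRDX 1.5 h replicate 2 (-0.52), and that at 4 h without SRDX dark replicate 1 (-0.33) or either 4 h replicate (-0.45 and -0.48).

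EXPA8 was at 147, 113 and 192 CPM in dark Col and at 98.7, 104.5 and 79.9 at 1.5 h. It fell at 1.5 h by 0.65 ± 0.20 in Col (adjusted p = 0.01), 0.93 in OX and 0.78 in VP16. In hy5 the difference was -0.04 ± 0.20 (adjusted p = 0.9), and in SRDX 0.53 at 1.5 h (adjusted p = 0.11). At 4 h EXPA8 rose by 1.03 ± 0.24 in SRDX (adjusted p = 0.00085), and in hy5 the difference was 0.50 (adjusted p = 0.06). The Col call was lost without Col dark replicate 3 (-0.45) or Col 1.5 h replicate 3 (-0.53), the SRDX value at 1.5 h was called without SRDX dark replicate 1 (0.84), and the hy5 value at 4 h without hy5 4 h replicate 2 (0.70).

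EXPA2, best known from germinating seeds, was scarce. It was at 1.92, 0.546 and 2.74 CPM in dark hy5, at 7.82, 8.53 and 2.77 at 1.5 h and at 11.8 and 10.5 at 4 h. The groups were apart, though by little between the highest dark and the lowest 1.5 h library. EXPA2 rose in hy5 by 1.41 ± 0.33 at 1.5 h (adjusted p = 0.0012) and by 2.24 ± 0.37 at 4 h (adjusted p = 8.1e-06). It also rose in SRDX at 4 h, by 1.45, a call lost without SRDX dark replicate 1 (1.12) or SRDX 4 h replicate 1 (0.94). In Col the difference at 1.5 h was -0.65 ± 0.33 (adjusted p = 0.13).

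**Figure D3:**
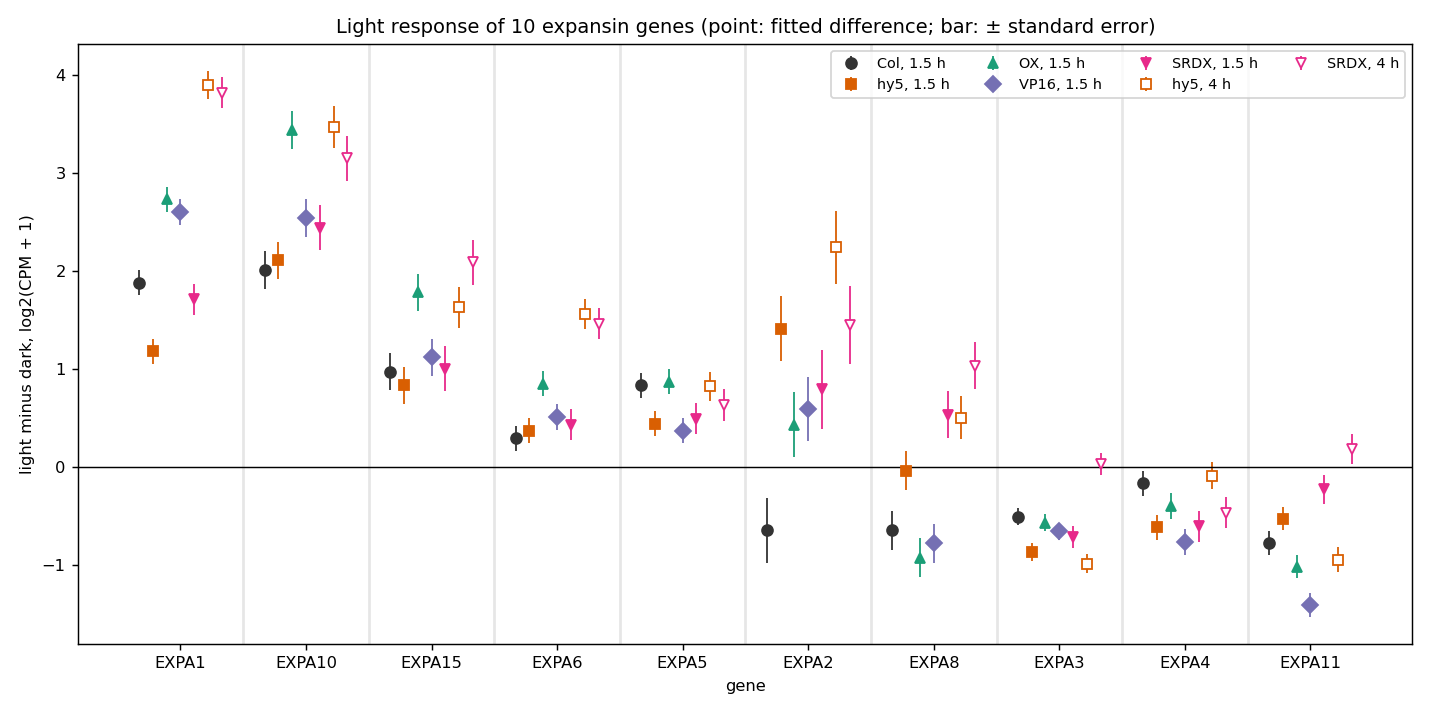
Light minus dark difference in log2(CPM + 1) on the y axis for each gene on the x axis, in 7 comparisons marked by shape and colour, open for 4 h, with the standard error as the bar. EXPA1 and EXPA10 are highest, up to 3.90 and 3.47 in hy5 at 4 h, and EXPA11 in VP16 is lowest at -1.41.

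Markers of several lists moved with light beside these genes. The summed level of 4 shoot epidermis and stomata markers was 1098 to 1235 CPM in dark hy5, 1339 to 1466 at 1.5 h and 1761 to 2217 at 4 h, with 3 of 4 called higher at 4 h. The summed level of 6 heat shock genes was 152 to 197 CPM in dark VP16 and 887 to 1907 at 1.5 h, with 6 of 6 higher, and 231 to 244 and 426 to 781 in OX, with 5 of 6 higher. In Col it was 299.9 to 393 CPM in the dark and 557 to 867 at 1.5 h, with 4 of 6 higher, and in SRDX 391 to 597 and 793 to 1029, with 2 of 6 higher. In hy5 the sum was 477 to 690 CPM in the dark and 503 to 784 at 1.5 h, and the median log2 difference of the 6 was 0.01. The 1 measured shoot meristem gene fell with light in 4 of the 7 comparisons, and 3 of 4 root hair genes rose in SRDX at 4 h. The sum of the 4 root hair genes was 0.663 to 1.98 CPM in dark SRDX and 5.32 to 10.01 in SRDX at 4 h. RSL4, the 1 root hair gene not called there, averaged 0.294 CPM in dark SRDX. At 4 h it averaged 0.0649 CPM, about the level of 1 read. Of all genes, 22.4% were higher at 1.5 h in VP16, 23.6% in OX, 18% in Col and 13.9% in SRDX. At 4 h 24.5% of all genes were higher in hy5 and 23.1% in SRDX. The part of these lists in the changes of the expansins was not tested.

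Col against hy5 asks what the endogenous HY5 gene changes. In the dark 2 of the 10 genes were called, against 2.02% of all genes, 0.859% higher and 1.16% lower, with a median difference of -0.08 for the 10 and 0.00 for all genes. EXPA2 was at 13.8, 10.09 and 15.9 CPM in Col and at 1.92, 0.546 and 2.74 in hy5, with 650 reads against 64 in all. Every Col library was above every hy5 library. The log2 difference was 2.45 ± 0.33 (adjusted p = 5.1e-05). EXPA5 went the other way, at 23.5, 23.8 and 25.0 CPM in Col and 36.2, 36.0 and 38.3 in hy5, also without overlap. It was lower in Col by 0.59 ± 0.13 (adjusted p = 0.012), a call lost without Col dark replicate 1 (-0.57) or 2 (-0.58) or hy5 dark replicate 3 (-0.56). EXPA2 has 61 bases, 4.99% of its gene, in common with AT5G05300 on the opposite strand, and the strand setting of the counting is not given in the sources used here; that neighbour is not among the genes analysed here.

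At 1.5 h 2 of the 10 were called in Col against hy5 (9.15% of all genes, 5.11% higher and 4.05% lower), with a median of 0.29 against -0.01. EXPA8 was at 98.7, 104.5 and 79.9 CPM in Col and at 191, 185 and 159 in hy5, a clear gap. It was lower in Col by 0.92 ± 0.20 (adjusted p = 0.0017). EXPA3 was at 242, 220.2 and 253 CPM in Col and 177, 197 and 175 in hy5, and was higher by 0.38 ± 0.09 (adjusted p = 0.006). EXPA2 had 10.7, 5.80 and 8.005 CPM in Col and 7.82, 8.53 and 2.77 in hy5, which overlap, for a difference of 0.39 ± 0.33 (adjusted p = 0.62). EXPA1 was at 0.34 (adjusted p = 0.11), and EXPA11 was at -0.33 (adjusted p = 0.087) and was called without hy5 1.5 h replicate 1, at -0.43.

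OX against hy5 had fewer calls in the dark than at 1.5 h, among the 10 genes as among all genes. In the dark 2 of 10 were called (13.5% of all genes, 6.72% higher and 6.76% lower), with a median of -0.31 against -0.01, and EXPA3 and EXPA11 were each lower by 0.36 (adjusted p = 0.0095 and 0.043). EXPA3 lost its call without hy5 dark replicate 3 (-0.29) or OX dark replicate 2 (-0.30), and EXPA11 lost its call without any 1 of 5 of the 6 libraries, OX dark replicate 3 being the exception, at -0.26 to -0.40. EXPA2 had 0.70, 0.394 and 0.112 CPM in OX, 1 to 7 reads a library, and its difference of -0.89 was not called (adjusted p = 0.07) but was without hy5 dark replicate 2 (-1.26). With a pseudocount of 0.25 EXPA2 was called at -1.51.

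At 1.5 h 7 of 10 were called in OX against hy5 (25.2% of all genes, 12.6% higher and 12.6% lower), 4 higher and 3 lower, with a median of 0.09 against -0.01. EXPA1 was at 283.5, 289 and 322 CPM in OX and at 139, 121.5 and 113 in hy5. EXPA10 was at 136, 124 and 131.5 CPM in OX and at 63.3, 69.2 and 45.03 in hy5. Neither overlapped, and EXPA1 was higher by 1.26 ± 0.13 (adjusted p = 7.3e-09) and EXPA10 by 1.15 ± 0.19 (adjusted p = 1.9e-05). EXPA6 was higher by 0.74 and EXPA15 by 0.58, the latter not called without hy5 1.5 h replicate 3 or OX 1.5 h replicate 3 (0.50 each). EXPA2, EXPA8 and EXPA11 were lower by 1.88, 1.04 and 0.85 (adjusted p = 6.5e-05, 0.00017 and 2.1e-06). EXPA2 was at 0.832, 0.465 and 1.38 CPM in OX, all below the lowest hy5 library.

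VP16 against hy5 gave lower levels in the dark. There 5 of 10 were called (22.2% of all genes, 11.1% higher and 11.1% lower) and all 5 were lower, with a median of -0.54 against 0.00. EXPA3 was at 181, 199.9 and 179.9 CPM in VP16 and 322, 321 and 366 in hy5. EXPA8 was at 96.8, 120.2 and 96.2 CPM in VP16 and 184, 171 and 195 in hy5. No libraries overlapped in either. EXPA3 was lower by 0.84 ± 0.09 (adjusted p = 7.1e-08), EXPA8 by 0.81 ± 0.20 (adjusted p = 0.003), EXPA11 by 0.73, EXPA1 by 0.57 and EXPA5 by 0.51. EXPA2 was at -0.83 (adjusted p = 0.069), and was called at -1.34 with a pseudocount of 0.25 and at -1.20 without hy5 dark replicate 2.

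At 1.5 h 7 of 10 were called in VP16 against hy5 (24.9% of all genes, 13.1% higher and 11.8% lower), 1 higher and 6 lower, with a median of -0.48 against 0.00. EXPA11 was at 44.3, 36.1 and 39.5 CPM in VP16 and 109, 130.4 and 134.5 in hy5. EXPA8 was at 72.2, 55.5 and 53.8 CPM in VP16 and at 191, 185 and 159 in hy5. The gaps were wide, and EXPA11 was lower by 1.61 ± 0.12 (adjusted p = 7.3e-12) and EXPA8 by 1.55 ± 0.20 (adjusted p = 3.6e-07). EXPA2, EXPA3 and EXPA5 were lower by 1.65, 0.63 and 0.58. EXPA4 was lower by 0.38 (adjusted p = 0.027), a call lost without any 1 of 5 of the 6 libraries, VP16 1.5 h replicate 1 being the exception, at -0.26 to -0.40. EXPA1 was the 1 gene that was higher, by 0.85 ± 0.13 (adjusted p = 7.3e-06). EXPA10 was at 0.45 (adjusted p = 0.075), called at 0.57 without hy5 1.5 h replicate 2, and EXPA6 was called at 0.41 without VP16 1.5 h replicate 2.

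Several marker lists differed with the transgenes. All 6 heat shock genes were lower than in hy5 in dark OX and in dark VP16, where their sums were 231 to 244 and 152 to 197 CPM against 477 to 690 in hy5. All 4 root hair markers were higher in VP16 in the dark (summed 11.8 to 29.99 CPM against 3.40 to 7.27) and at 1.5 h (15.01 to 21.1 against 2.47 to 8.77). The shoot epidermis sum was 642.5 to 837 CPM in dark VP16 and 1098 to 1235 in dark hy5, with 1 of 4 markers higher and 1 lower. At 1.5 h it was 719 to 906 CPM in VP16 and 1339 to 1466 in hy5, with 1 of 4 lower, PDF1, an epidermal gene, at 629 against 1208 CPM. The heat shock sum was 887 to 1907 CPM in VP16 at 1.5 h against 503 to 784 in hy5, with 3 of 6 higher and 1 lower. Of the 3 endodermis and ground tissue markers 1 was lower in VP16 in the dark and at 1.5 h, and the 1 measured shoot meristem marker was called in no comparison with hy5. Of all genes, 6.76% were lower than in hy5 in dark OX. In VP16 11.1% were higher and 11.1% lower in the dark, and 13.1% and 11.8% at 1.5 h. The part of the markers in the lower expansin levels was not tested.

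SRDX against hy5 had 4 of 10 genes lower in the dark (9.71% of all genes, 5.19% higher and 4.52% lower), with a median of -0.35 against 0.01. EXPA1 was at 34.1 and 31.9 CPM in SRDX and 54.1, 51.6 and 57.4 in hy5, without overlap, and was lower by 0.70 ± 0.14 (adjusted p = 0.0018). EXPA4 was lower by 0.59, EXPA15 by 0.68 and EXPA3 by 0.32 (adjusted p = 0.0075, 0.036 and 0.044). EXPA4 lost its call without SRDX dark replicate 2 (-0.45) and EXPA3 without any 1 of the 5 libraries (-0.26 to -0.37). EXPA15 lost its call without hy5 dark replicate 1 (-0.61) or 2 (-0.67) or SRDX dark replicate 1 (-0.29). EXPA8 was at -0.65 (adjusted p = 0.056) and was called at -0.97 without SRDX dark replicate 1.

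At 1.5 h 1 of 10 was called in SRDX against hy5 (6.5% of all genes, 4.26% higher and 2.24% lower), with a median of -0.15 against -0.01. EXPA4 was at 49.2 and 42.9 CPM in SRDX and 68.1, 72.7 and 67.5 in hy5. It was lower by 0.58 ± 0.14 (adjusted p = 0.008), a call lost without SRDX 1.5 h replicate 2 (-0.49). At 4 h 4 of 10 were called (17.9% of all genes, 8.24% higher and 9.65% lower), 2 higher and 2 lower, with a median of -0.33 against -0.01. EXPA1 was at 502 and 455 CPM in SRDX and 925.5 and 739 in hy5, and EXPA4 at 50.5 and 51.5 against 87.8 and 115. EXPA3 was at 258 and 288.5 CPM in SRDX and 156 and 182 in hy5, and EXPA11 at 142 and 171 against 74.9 and 113. None of these overlapped: EXPA4 was lower by 0.97 and EXPA1 by 0.79, while EXPA11 was higher by 0.75 and EXPA3 by 0.69 (adjusted p = 3.4e-05, 0.00051, 0.00034 and 4e-05). EXPA10 was at -0.58 (adjusted p = 0.079), and was called at -0.97 without hy5 4 h replicate 1, as EXPA6 was at -0.54 without hy5 4 h replicate 2.

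Seed storage transcripts stood out in SRDX. Their sum over 2 measured genes was 9.90 to 11.9 CPM in dark SRDX against 0.912 to 1.09 in dark hy5, and 7.66 to 9.07 against 1.07 to 3.71 at 4 h. In SRDX 1 of 2 was called higher in the dark, and 2 of 2 at 1.5 h and at 4 h. In dark Col, OX and VP16 1 of the 2 was also higher than in hy5 (0.859%, 6.72% and 11.1% of all genes). The same count held in Col and VP16 at 1.5 h (5.11% and 13.1%). The shoot epidermis sum was 583.5 to 889 CPM in dark SRDX against 1098 to 1235 in hy5, with 2 of 4 lower. Root hair markers summed to 0.663 to 1.98 CPM in dark SRDX against 3.40 to 7.27 in hy5, with 1 of 4 called lower. Of all genes, 5.19% were higher and 4.52% lower in dark SRDX than in dark hy5. At 1.5 h and 4 h 4.26% and 8.24% of all genes were higher in SRDX. The part of these lists in the SRDX differences was not tested.

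**Figure D4:**
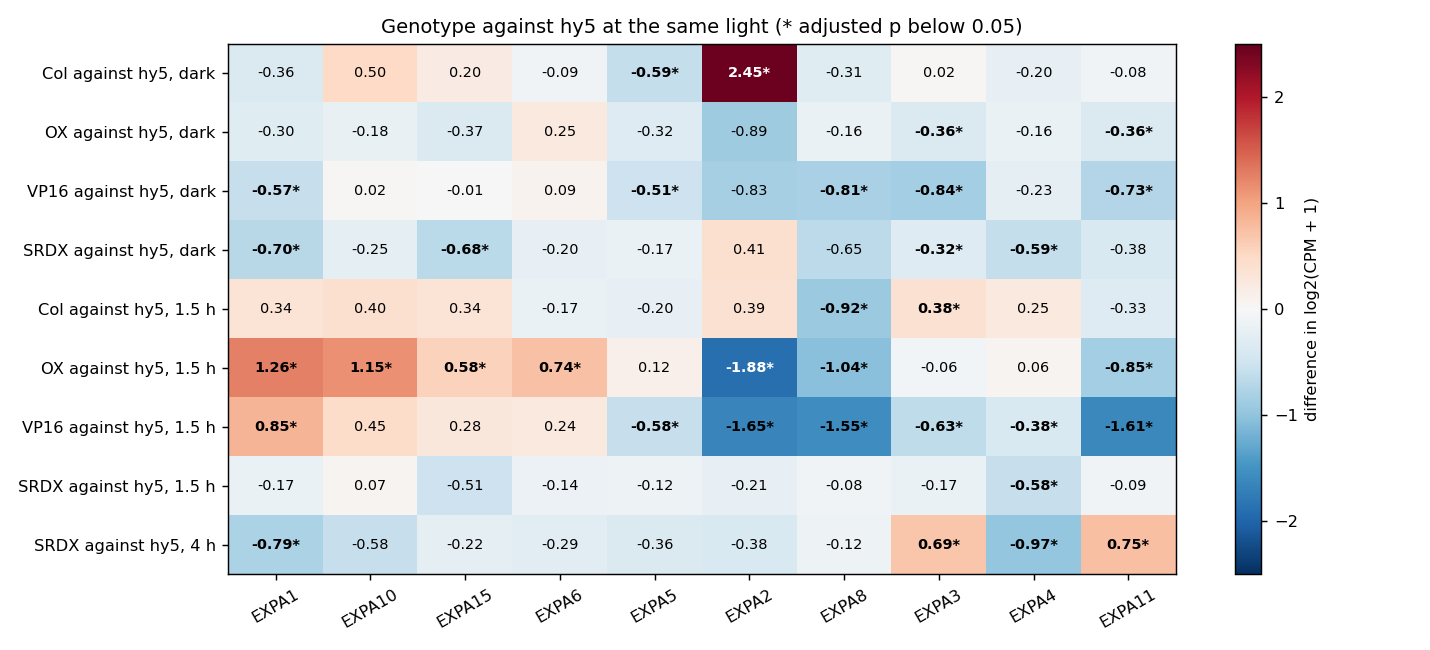
Difference in log2(CPM + 1) from hy5 at the same light, with genes on the x axis and the 9 comparisons on the y axis, in colour and as printed values, a star marking an adjusted p below 0.05. EXPA2 in dark Col is the highest at 2.45, and EXPA2 in OX at 1.5 h the lowest at -1.88. The comparisons of 1 light condition share the hy5 libraries of that condition.

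The light responses themselves were compared between genotypes. In Col minus hy5 2 of 10 genes were called (4.01% of all genes, 2.9% higher and 1.11% lower), with a median of 0.03 against -0.01. EXPA1 responded more in Col by 0.70 ± 0.18 (adjusted p = 0.02) and EXPA2 less by 2.06 ± 0.47 (adjusted p = 0.0055). The EXPA1 call was lost without hy5 dark replicate 3 (0.66), Col 1.5 h replicate 1 (0.67) or 3 (0.64), or hy5 1.5 h replicate 3 (0.63). In OX minus hy5 4 of 10 were called (10.7%, 5.98% higher and 4.73% lower), EXPA1 at 1.56 ± 0.18, EXPA10 at 1.33 ± 0.26, EXPA15 at 0.95 ± 0.26 and EXPA8 at -0.88 ± 0.28 (adjusted p = 3.3e-07, 0.00067, 0.015 and 0.038), with a median of 0.37 against 0.00. EXPA8 lost its call without any 1 of 9 of the 12 libraries, at -0.66 to -0.93, and EXPA15 without hy5 1.5 h replicate 3 (0.87, adjusted p = 0.05). EXPA11 was called without OX dark replicate 2 (-0.60) or hy5 1.5 h replicate 1 (-0.59), and EXPA2 without hy5 1.5 h replicate 3 (-1.41).

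In VP16 minus hy5 2 of 10 were called (8.47%, 5% higher and 3.47% lower), EXPA1 at 1.42 ± 0.18 and EXPA11 at -0.88 ± 0.17 (adjusted p = 2.1e-06 and 0.00058), with a median of 0.04 against 0.00. In SRDX minus hy5 limma called 0 of 10 (0.127% of all genes, 0.117% higher and 0.0102% lower), as did edgeR and DESeq2, and 1 of the 10 had an unadjusted p below 0.05, with a median of 0.16 against 0.00 and differences from -0.62 for EXPA2 to 0.57 for EXPA8. EXPA1 there was at 0.54 ± 0.20 (adjusted p = 0.81).

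VP16 and SRDX carry opposite domains and were set against each other. In the dark 3 of 10 were called (20.1% of all genes, 9.73% higher and 10.3% lower), with a median of -0.01 against 0.00: EXPA15 was higher in VP16 by 0.67, and EXPA3 and EXPA2 were lower by 0.52 and 1.24. At 1.5 h 7 of 10 were called (29.9%, 15.4% higher and 14.5% lower), with a median of -0.13 against 0.00. EXPA1 was higher in VP16 by 1.01 ± 0.14 and EXPA15 by 0.79, and EXPA11, EXPA8, EXPA2, EXPA3 and EXPA5 were lower by 1.53, 1.47, 1.44, 0.46 and 0.46. EXPA5 was the 1 called gene whose libraries overlapped, at 41.2, 27.8 and 32.2 CPM in VP16 and 51.9 and 40.8 in SRDX. Without single libraries, dark EXPA15 was no longer called (0.28 without SRDX dark replicate 1, 0.52 without VP16 dark replicate 3), nor was dark EXPA2 (-0.90 without SRDX dark replicate 2, -1.15 without VP16 dark replicate 2). At 1.5 h the same held for EXPA2 without SRDX 1.5 h replicate 1 (-0.96), for EXPA15 without SRDX 1.5 h replicate 2 (0.58), and for EXPA5 without SRDX 1.5 h replicate 1 (-0.29) or VP16 1.5 h replicate 2 (-0.33) or 3 (-0.43). EXPA4 was called in the dark without VP16 dark replicate 1 (0.46), and EXPA6 at 1.5 h without VP16 1.5 h replicate 2 (0.55).

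The authors' deposited table of log2 differences against hy5 gives 90 values for these genes, and 90 of 90 have the sign of the limma value, the 34 called ones included. In the authors' deposited table EXPA2 of dark Col stands at 2.92, where the limma value with a pseudocount of 1 is 2.45. The EXPA2 values of the authors' deposited table lie further from 0 in OX, at -2.07 in the dark and -2.83 at 1.5 h where limma gave -0.89 and -1.88. The same holds in VP16, at -1.96 and -2.42 in the authors' deposited table and -0.83 and -1.65 by limma.

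Across the 12 groups, EXPA1 ran from 33 CPM in dark SRDX to 832 in hy5 at 4 h, in the order SRDX, VP16, Col, OX and hy5 in the dark, SRDX, hy5, Col, VP16 and OX at 1.5 h, then SRDX and hy5 at 4 h. Neighbours in that order overlapped in 3 of 11 places. For EXPA2 and EXPA5 all 11 neighbours overlapped, for EXPA8 10, for EXPA4, EXPA11 and EXPA15 9, for EXPA3 8 and for EXPA6 and EXPA10 7. hy5 at 4 h was the highest group of EXPA1, EXPA5, EXPA6, EXPA8, EXPA10 and EXPA15. VP16 at 1.5 h was the lowest of EXPA3, EXPA8 and EXPA11.

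**Figure D5:**
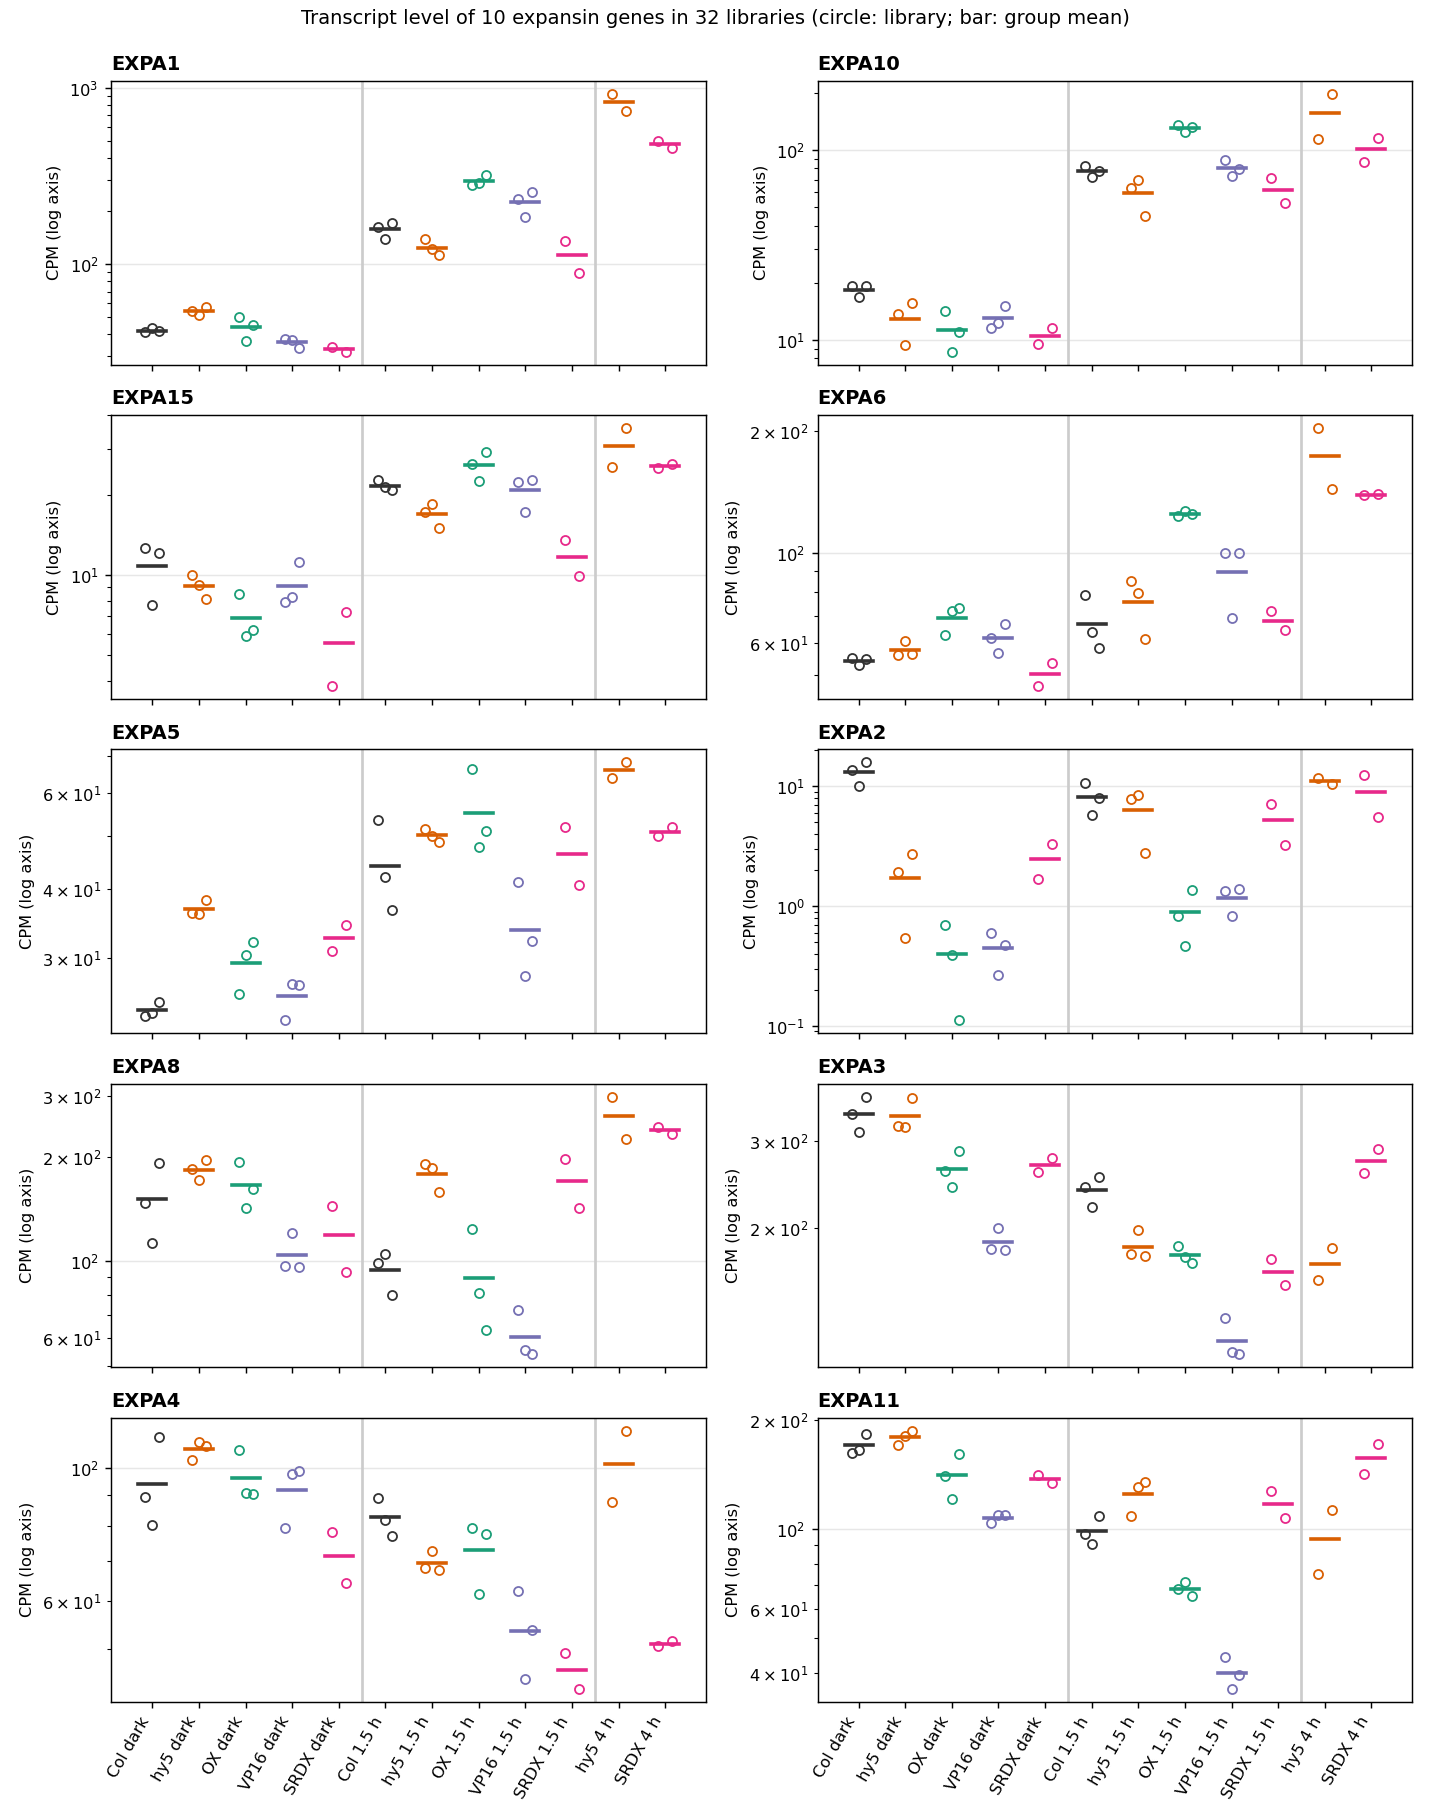
CPM of each gene on a log y axis in the 12 groups on the x axis, split by grey lines into dark, 1.5 h and 4 h. Circles are libraries, bars are group means and colours are genotypes. The EXPA1 and EXPA10 circles rise from dark to light in all 5 genotypes, and those of EXPA11 reach their lowest in VP16 at 1.5 h.

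Over the 12 group means of log2(CPM + 1), which share libraries and genotypes and are given as a description, EXPA10 and EXPA15 correlated at r = 0.953, EXPA1 and EXPA10 at 0.942, EXPA1 and EXPA15 at 0.939, EXPA1 and EXPA6 at 0.936, and EXPA3 and EXPA11 at 0.865. The lowest was EXPA3 with EXPA10, at -0.575. Among the 15023 genes whose group means averaged at least 5 CPM, the gene most like each was RP1 (AT4G21210) for EXPA1 at 0.981, AT2G43235 for EXPA10 at 0.993, DUT1 (AT3G46940) for EXPA15 at 0.979, PAP3 (AT1G14700) for EXPA6 at 0.977 and AT1G54575 for EXPA5 at 0.94. For the others it was BAT1 (AT2G01170) for EXPA3 at 0.957, AT4G23030 for EXPA11 at 0.978, AT5G66390 for EXPA4 at 0.937, AT4G38860 for EXPA8 at 0.956 and SRF8 (AT4G22130) for EXPA2 at 0.927. In coding sequence the closest relative was EXPA10 for EXPA1 (78.7% identity), and EXPA16 for EXPA4 (81.1%). The longest identical run of any of the 10 with another expansin was 36 bases, in EXPA2 and EXPA14.

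Of 26 other expansins 14 were measured. EXPA9 fell in all 7 light comparisons, from 256 ± 15.6 CPM in dark Col to 66.2 ± 4.03 at 1.5 h (SD, n = 3 each; log2 difference -1.94, adjusted p = 5.5e-17), and EXPB3, a beta-expansin, rose in all 7, from 6.13 to 78.2 CPM in hy5 at 4 h (3.46, adjusted p = 1.7e-12). At 1.5 h in Col 1 of the 14 was called higher and 4 lower, where 18% of all genes were higher and 17.9% lower. At 4 h in hy5 4 were higher and 4 lower, against 24.5% and 26.3% of all genes. The expansin-like genes EXLA1 and EXLA2 were lower than in hy5 in VP16 at 1.5 h, EXLA2 by 1.86 and EXLA1 at 9.90 against 37.0 CPM, where 3 of the 14 were higher and 4 lower (13.1% and 11.8% of all genes). EXPA7, an expansin of root hairs, was higher there by 1.74, beside the root hair markers above.

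Of the 5 plasma membrane proton pumps, 2 were called lower at 1.5 h in Col and in hy5, where 17.9% and 15.7% of all genes were lower, AHA2 falling from 2120 to 1319 CPM in Col (log2 difference -0.69, adjusted p = 8.1e-06) and AHA1 by 0.43. At 4 h in hy5 2 rose and 2 fell (24.5% and 26.3% of all genes), AHA11 rising by 0.99 and AHA2 falling by 0.58. OX against hy5 at 1.5 h had 3 lower (12.6% of all genes), AHA2 by 0.72, and VP16 had AHA2 lower by 0.83 and AHA7 higher by 0.67. Of the 9 clade D phosphatases 4 fell at 1.5 h in Col and in hy5, beside the same 17.9% and 15.7%. In OX 2 rose and 4 fell, against 23.6% and 22.6% of all genes, and in VP16 2 rose and 2 fell, against 22.4% and 22.1%. In SRDX at 4 h 3 of the 9 were higher than in hy5, against 8.24% of all genes, though the median log2 difference of the 9 was -0.12. AT5G66080 fell from 43.4 to 28.1 CPM in Col and was lower in VP16 than in hy5 at 1.5 h by 1.30.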

How the data were processed

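Poly(A) RNA of whole seedlings was sequenced as stranded libraries, per the labels' protocols. Per the submitters' processing notes, the build was TAIR10 and the tools included HTSeq 0.6.0, TopHat2 2.0.11 with Bowtie2 2.2.2.0, CASAVA 1.8.2, edgeR 3.16.5 and SAMtools 0.1.19.0. The authors deposited a normalized signal, named CPM in the file, whose columns sum to 925942 to 1066829, and log2 fold changes of each group relative to hy5. Plain CPM had been planned for, and the planned test was kept. All values were whole multiples of 1 read within 0.01 reads, so reads were recovered for depth and count tests.

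With R 4.3.3, limma 3.58.1 (eBayes with trend) was fitted to log2(CPM + 1) of all 32 libraries with 1 mean per group. P-values were adjusted by Benjamini-Hochberg over 19685 genes within each of 22 comparisons. Genes had to reach 1 CPM in 2 libraries, and every gene did. The alternatives tried were DESeq2 1.42.0 or the quasi-likelihood test of edgeR 4.0.16 on the recovered reads, a replicate block, each library left out, a fit of only the compared groups, median-of-ratios scaling, a pseudocount of 0.25, a filter at a mean of 5 CPM, and none at all.

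Same-numbered libraries deviated together in Col against hy5 in the dark, with correlations of 0.172 to 0.306 in 3 of 3 pairs. Correlations were positive in all 3 pairs of some other comparisons too. They were 0.363, 0.124 and 0.0942 for 1.5 h against dark in OX, and 0.204, 0.0491 and 0.235 for Col against hy5 at 1.5 h. The members, lists and named genes were chosen with earlier results of these data known. All 10 members are described, with up to 4 other expansins, pumps or phosphatases of smallest adjusted p per comparison and the gene most like each member among 15023 genes whose group means averaged at least 5 CPM. Sequences and motifs came from RefSeq TAIR10.1, whose name differs from the labelled TAIR10; the files give no coordinates to compare. Figures were drawn with matplotlib 3.10.9.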

Additional observations from a re-analysis of the deposited data

Results flagged for a closer look

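The light response at 1.5 h was called different from that of hy5 in 8 tests among these genes, by limma's interaction term. The 10 genes were each tested in 4 genotypes. In Col (4.01% of all genes called), EXPA1 differed by 0.70 and EXPA2 by -2.06 on the log2 scale. In OX (10.7%), EXPA1 differed by 1.56, EXPA10 by 1.33, EXPA15 by 0.95 and EXPA8 by -0.88. In VP16 (8.47%), EXPA1 differed by 1.42 and EXPA11 by -0.88. In SRDX 0 of 10 were called (0.127%). The calls of EXPA1 in Col and of EXPA8 and EXPA15 in OX were lost without certain single libraries. The group means behind the EXPA2 value were 13.2 and 8.17 CPM in Col and 1.73 and 6.37 in hy5, in the dark and at 1.5 h. EXPA1 is the gene named in Col, OX and VP16 alike, and these 3 differences share the hy5 libraries.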

How the results depend on the processing

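No value changed direction under an alternative where the main fit or that alternative called it. Changes of direction among values called in neither fit were not counted. The number of the 10 genes called moved by more than 1.5 times in these cases. With a mean of at least 5 CPM, which drops EXPA2, it was 1 in place of 2 for Col against hy5 in the dark and 1 in place of 2 for the light response of Col minus hy5. For OX against hy5 in the dark (2 called) it was 0 with the compared groups alone and 1 each with median-of-ratios scaling and edgeR. For SRDX against hy5 it was 2 with edgeR in place of 4 in the dark, and 2 with the compared groups alone in place of 1 at 1.5 h. With single libraries left out, the counts ranged from 1 to 2 for Col against hy5 in the dark, from 0 to 2 for OX and from 2 to 3 for SRDX in the dark, from 0 to 1 for SRDX against hy5 at 1.5 h, from 4 to 6 for SRDX at 1.5 h against dark (7 with all libraries) and from 1 to 2 for the light response of Col minus hy5. Over all single-library fits, 74 of the members' values lost their call and 16 gained one, against 1340 that did neither. The causes were not tested, apart from the dropped gene.

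With the replicate number as a block, 2 genes were called in Col against hy5 in the dark, as without it. The labels state no shared batch for equal numbers, so whether the numbers pair the libraries in any comparison is not known. Over all 22 comparisons the block left 211 values on their side of the threshold, 8 gained a call and 1, EXPA3 in dark SRDX (-0.31, adjusted p = 0.062), lost it. EXPA2 of dark OX and VP16 had 1 to 7 reads a library. Its differences from hy5 there were not called, but were with a pseudocount of 0.25 (-1.51 and -1.34) and without hy5 dark replicate 2 (-1.26 and -1.20).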
